A study of Mus musculus with 12 samples.

Results

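The collagen genes of CT26 tumours were followed across 4 treatments. CT26 is a mouse colon carcinoma line that is grown as tumours in mice, and RNA of whole tumour tissue was sequenced. Collagens were taken as all entries of the deposited expression table whose symbol is Col, a number, a and a number, which gave 44 of 55415 entries: 11 fibrillar, 6 basement membrane (type IV) and 27 other collagens. Of the 12 libraries, 3 came from tumours of untreated mice (control), 3 from mice given Complex 1, 3 from mice given radiation and 3 from mice given Complex 1 and radiation (the combination). By its title the series is about an X-ray activated complex of platinum and an abscopal effect, that is, one on tumours away from the irradiated site. The sources used here give no doses, times or tumour site, nor whether the sampled tumour had itself been irradiated. Whether the libraries within a group came from separate animals is not stated, so p-values measure only the spread between these samples.

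Collagens are trimers of α chains wound into a triple helix. Fibrillar collagens such as types I, III and V build the fibres of connective tissue, type IV collagen forms the sheet-like network of the basement membrane under epithelia and around vessels and muscle, and the remaining types decorate fibrils, form beaded filaments or short-chain networks, or sit in the cell membrane. In tumours, fibroblasts are known as the main makers of fibrillar collagen, while endothelial and tumour cells also make type IV chains.

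The libraries held 15.6 to 19.1 M counts (M, mega) each. Xist, the X-inactivation RNA, was at 0.02 FPKM (fragments per kilobase of exon and mega count) in control replicate 2 and at 9.20 to 14.2 in the other 11 libraries. The summed FPKM of 6 T cell markers was 20.5 in Complex 1 replicate 3 against 8.05 and 9.62 in the other Complex 1 libraries, and 4.56 in radiation replicate 2 against 20.0 and 17.8. These 3 libraries stand apart. For some collagen results, but not for all, the value without them is given. A result given without such a value may still rest on them. Of 8 markers of colon epithelium and carcinoma, Krt20 (66.6 to 148 FPKM) and Krt18 (2.81 to 7.72) were well measured, whereas the defining epithelial markers Epcam, Vil1 and Cdx2 reached at most 0.18 FPKM and were absent or nearly so. In RNA of whole tissue, fewer cells of a type and less RNA per cell cannot be told apart.

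A small number of chains made up most of the collagen RNA. Per length, Col1a2, the α2 chain of type I collagen, was the most abundant collagen in each of the 12 libraries at 112 to 159 FPKM and held 32.6% of the summed collagen FPKM. The first 3 collagens (Col1a2, Col4a1 and Col1a1) held 51.5%, the first 5 (with Col8a1 and Col4a2) 67.7% and the first 11 95.1%. Of the 44 collagens, 11 had a mean of at least 10 FPKM, 8 a mean of 1 to 10 and 25 a mean under 1. Those 25 were under 1 FPKM in all 12 libraries, and 12 of the 44 reached at most 0.1 FPKM anywhere. The 19 collagens with at least 1 FPKM in at least 3 libraries were tested: 6 fibrillar, 3 basement membrane and 10 other. The 25 that were not tested held 0.741% of the summed collagen FPKM. All collagens together took 0.351% to 0.420% of the counts of a library.

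**Figure D1:**
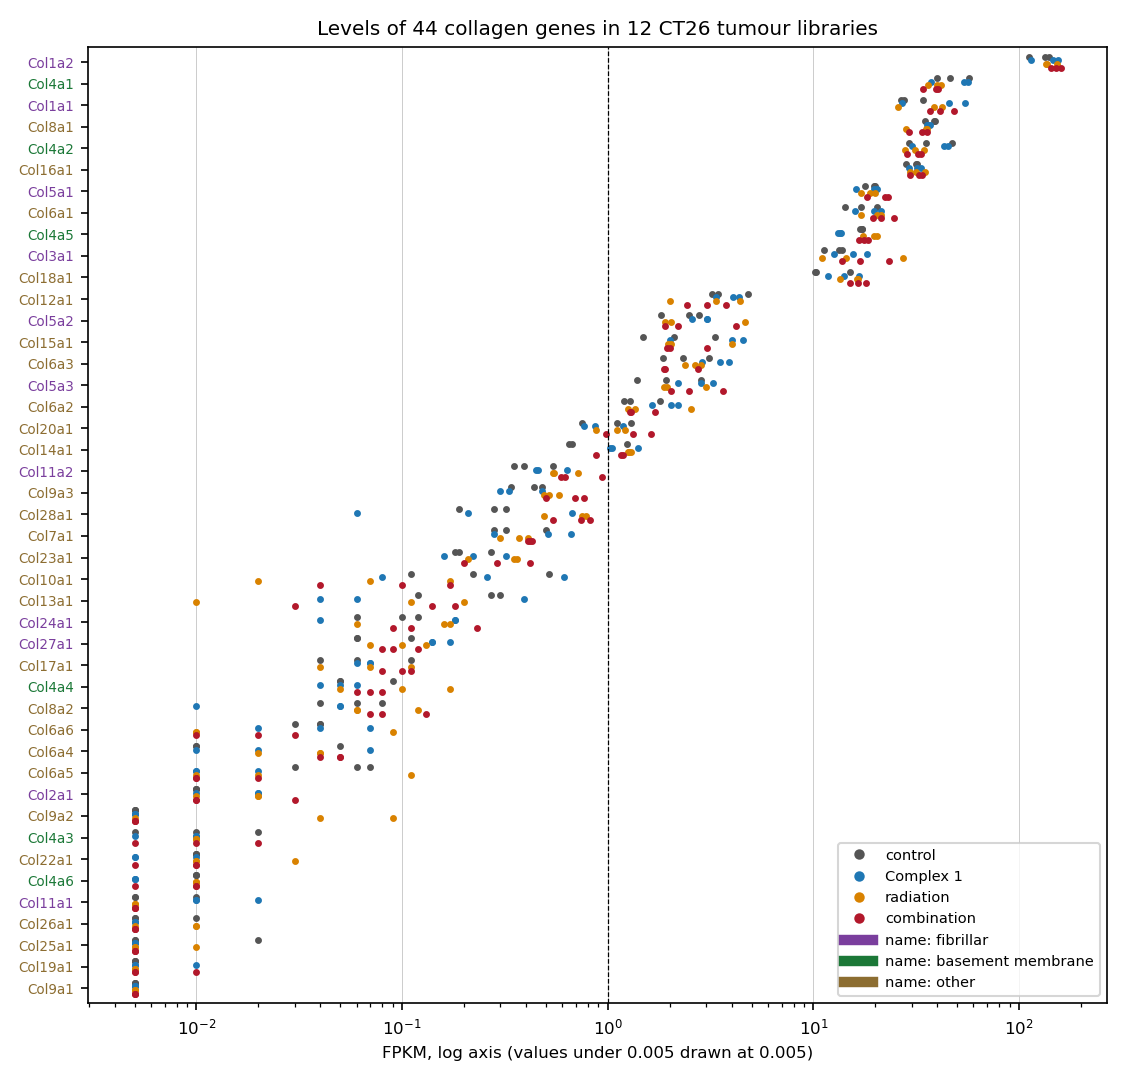
FPKM of the 44 collagens (one line each, ordered by mean) in the 12 libraries on a log axis; each dot is a library, coloured by group, gene names are coloured by class, and the dashed line marks 1 FPKM. Col1a2 lies apart at 112 to 159 FPKM, and 25 genes lie left of the dashed line in all 12 libraries.

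Basement membrane collagen was carried by 3 of its 6 chains. Type IV chains assemble as fixed trimers: α1 and α2 (Col4a1, Col4a2) in nearly all basement membranes, and α3 to α6 in specialised ones such as those of kidney, lens and smooth muscle. Col4a1 held 45.7% of the mean type IV FPKM, Col4a2 36.5% and Col4a5 17.7%. The usual trimer partners of the α5 chain were barely detected: Col4a3 reached at most 0.02 FPKM, Col4a4 0.04 to 0.17 and Col4a6 at most 0.01. Each of the 3 gene pairs of the type IV family lies head to head, and the pairs differed in whether both members were on. Col4a1 (chr8:11248423-11362826, minus strand, mm39, as all coordinates from the deposited table) and Col4a2 (chr8:11362805-11499287, plus strand) start 21 bases apart and share 22 bases, Col4a3 and Col4a4 start 72 bases apart on chromosome 1, and Col4a5 (chrX:140258381-140472230, plus strand) and Col4a6 start 1309 bases apart. Col4a1 and Col4a2 were both high, Col4a3 and Col4a4 both low, and Col4a5 was high beside a nearly silent Col4a6.

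The promoter windows of the first and the last of these pairs are shown because both members of the first were high, while of the last only Col4a5 was measurable. Each runs from 250 bases before to 50 bases after the start in RefSeq, in GRCm38.p6 coordinates, and reads 5′ to 3′ on the gene's strand. Capitals mark CCAAT and GGGCGG on either strand (ATTGG and CCGCCC on the other strand). The windows are chr8:11312777-11313076 (minus) for Col4a1, chr8:11312555-11312854 (plus) for Col4a2, chrX:141475169-141475468 (plus) for Col4a5 and chrX:141474027-141474326 (minus) for Col4a6.
Col4a1: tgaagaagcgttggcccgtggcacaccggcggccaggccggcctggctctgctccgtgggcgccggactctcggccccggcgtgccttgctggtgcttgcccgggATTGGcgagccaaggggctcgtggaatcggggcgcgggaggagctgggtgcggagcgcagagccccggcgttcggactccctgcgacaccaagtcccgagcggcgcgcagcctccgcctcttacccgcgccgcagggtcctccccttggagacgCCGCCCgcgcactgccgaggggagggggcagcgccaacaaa
Col4a2: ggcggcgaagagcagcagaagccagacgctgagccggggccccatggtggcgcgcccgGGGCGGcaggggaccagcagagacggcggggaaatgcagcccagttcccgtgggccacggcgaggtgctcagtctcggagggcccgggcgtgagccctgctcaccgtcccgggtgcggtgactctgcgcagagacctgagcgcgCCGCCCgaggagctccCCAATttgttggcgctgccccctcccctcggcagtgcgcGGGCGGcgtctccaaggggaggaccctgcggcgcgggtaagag
Col4a5: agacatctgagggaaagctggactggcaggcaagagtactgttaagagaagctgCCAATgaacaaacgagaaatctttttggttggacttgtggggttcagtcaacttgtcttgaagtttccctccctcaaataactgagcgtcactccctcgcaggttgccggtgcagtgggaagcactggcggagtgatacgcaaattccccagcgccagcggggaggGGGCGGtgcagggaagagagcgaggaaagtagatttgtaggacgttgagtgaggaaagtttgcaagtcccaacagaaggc
Col4a6: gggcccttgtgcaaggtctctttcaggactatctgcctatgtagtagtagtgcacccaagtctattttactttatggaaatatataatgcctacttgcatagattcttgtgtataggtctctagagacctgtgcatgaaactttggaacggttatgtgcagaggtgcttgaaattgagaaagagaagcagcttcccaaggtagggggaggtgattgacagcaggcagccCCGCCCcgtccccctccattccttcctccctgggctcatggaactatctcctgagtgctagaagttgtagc
The windows of Col4a1 and Col4a2 share 78 bases, read on opposite strands, and had a GC content of 74% and 73.7%, against 52.7% for Col4a5, 48.3% for Col4a6 and a median of 52.7% over all windows. Col4a1 held 1 CCAAT and 1 GGGCGG, Col4a2 1 and 3, Col4a5 1 and 1, and Col4a6 0 and 1. TATAAA, searched on both strands, was in none of the 4. Among the 38 windows found for 35 of the 44 collagens, 34.2% held CCAAT, 60.5% GGGCGG and 13.2% TATAAA, against 37.4%, 35.7% and 13.6% of all 32851 windows of the same length.

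Col4a5 was lower in the Complex 1 tumours than in the other groups. It had 17.3, 16.8 and 17.2 FPKM in the control libraries, 13.7, 13.2 and 13.4 with Complex 1, 20.4, 17.4 and 19.8 with radiation and 16.6, 18.5 and 17.7 with the combination. The 3 Complex 1 libraries were the lowest of the 12 and did not overlap any other group, the 3 radiation libraries were all above the controls, and the combination overlapped both the control and the radiation libraries. Col4a5 fell by 0.37 ± 0.07 on the log2 scale (SE; edgeR's quasi-likelihood test, Benjamini-Hochberg adjusted p = 0.023) from control to Complex 1. It was the only one of the 19 tested collagens called there, where 0.812% of all tested genes were called and 0.0951% were called lower. Between Complex 1 and the combination it rose by 0.37 ± 0.07 (adjusted p = 0.0057), where 9.98% of tested genes were called and 4.73% were called higher. The combination and the control did not differ in Col4a5 by the test (0.00 ± 0.07, adjusted p = 0.98), nor did radiation and control (0.14 ± 0.07, adjusted p = 0.18) or the combination and radiation (-0.14 ± 0.07, adjusted p = 0.48). The result for radiation against control rests on radiation replicate 2. Without that library Col4a5 was called higher there, as the only collagen, where 12.3% of tested genes were called. Without the 3 libraries that stand apart no collagen was called there, against 10.9% of tested genes.

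Averaged effects were also tested: radiation over both levels of Complex 1 is the mean of radiation minus control and combination minus Complex 1, and Complex 1 over both levels of radiation is formed likewise. Col4a5 rose with radiation by 0.26 ± 0.05 (adjusted p = 0.0018) and fell with Complex 1 by 0.26 ± 0.05 (adjusted p = 0.011) on these averages. Radiation called 2 of the 19 collagens, 1 higher and 1 lower, against 26.5% of all tested genes (13.3% higher and 13.2% lower), and Complex 1 called 1, lower, against 2.77% (0.512% lower). The interaction, which asks whether Complex 1 acted differently with and without radiation, was 0.23 ± 0.10 for Col4a5 (unadjusted p = 0.032, adjusted p = 0.997). Its call in Complex 1 against control was lost without any 1 of the 3 control libraries (adjusted p = 0.076, 0.099 and 0.065), without Complex 1 replicate 2 or 3 (0.11 and 0.066) and without the 3 libraries that stand apart (0.096), with a log2 change of -0.39 to -0.35 in these. Col4a5 lies on the X chromosome, and control replicate 2, with almost no Xist, had 16.8 FPKM of it against 17.3 and 17.2 in the other controls.

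Col4a1 and Col4a2, the chains of the common α1α1α2 network, were lower on average in the tumours of mice given radiation. Col4a1 had 56.9, 46.2 and 39.7 FPKM in control, 54.0, 56.4 and 37.3 with Complex 1, 41.8, 36.1 and 39.9 with radiation and 39.4, 34.2 and 40.4 with the combination. Control replicate 1 and Complex 1 replicates 1 and 2 were high, and the groups overlapped. Col4a1 fell with radiation over both levels of Complex 1 by 0.35 ± 0.11 (adjusted p = 0.028), where 13.2% of tested genes were called lower. Within the single comparisons it was not called (radiation against control -0.31 ± 0.15, adjusted p = 0.20; combination against Complex 1 -0.39 ± 0.15, adjusted p = 0.12). Its call was lost without control replicate 1 (-0.27, adjusted p = 0.070), without Complex 1 replicate 1 or 2 (0.067 and 0.073), without radiation replicate 2 (0.057), without combination replicate 2 (0.070) and with limma on log2 FPKM (0.075). Of 22 alternatives, 15 kept the call. Without the 3 libraries that stand apart, Col4a1 was -0.41 ± 0.10 on this average (adjusted p = 0.0089), where 26.1% of tested genes were called. Col4a1 was then also called lower in combination against Complex 1, where 15.3% were called.

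Col4a2 had 47.1, 35.3 and 29.3 FPKM in control, 43.1, 44.9 and 30.3 with Complex 1, 34.3, 27.8 and 31.2 with radiation and 33.3, 28.4 and 32.2 with the combination. The same 3 libraries were high, and Col4a2 was -0.32 ± 0.12 with radiation over both levels of Complex 1 (adjusted p = 0.063). The ratio of Col4a1 to Col4a2 FPKM was 1.18 to 1.35 over the 12 libraries, a 1.15-fold span, while Col4a1 itself spanned 1.67-fold. The ratio of Col4a5 to Col4a1 spanned 2.31-fold: it was 0.303 to 0.433 in control, 0.234 to 0.361 with Complex 1, 0.482 to 0.496 with radiation and 0.422 to 0.541 with the combination. Relative to Col4a1, Col4a5 was thus lower in the libraries without radiation, except that control replicate 3 (0.433) exceeded combination replicate 1 (0.422).

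The summed FPKM of 9 endothelial markers was 31.1, 16.1 and 19.0 in control, 28.9, 37.1 and 16.8 with Complex 1, 24.9, 19.0 and 21.7 with radiation and 23.6, 20.8 and 20.8 with the combination. It was highest in the 3 libraries in which Col4a1 and Col4a2 were highest. None of the 9 markers was at 0 in all libraries, 8 were tested and none was called with radiation over both levels of Complex 1, against 26.5% of all tested genes. The part of the endothelial signal in the Col4a1 and Col4a2 values was not tested.

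**Figure D2:**
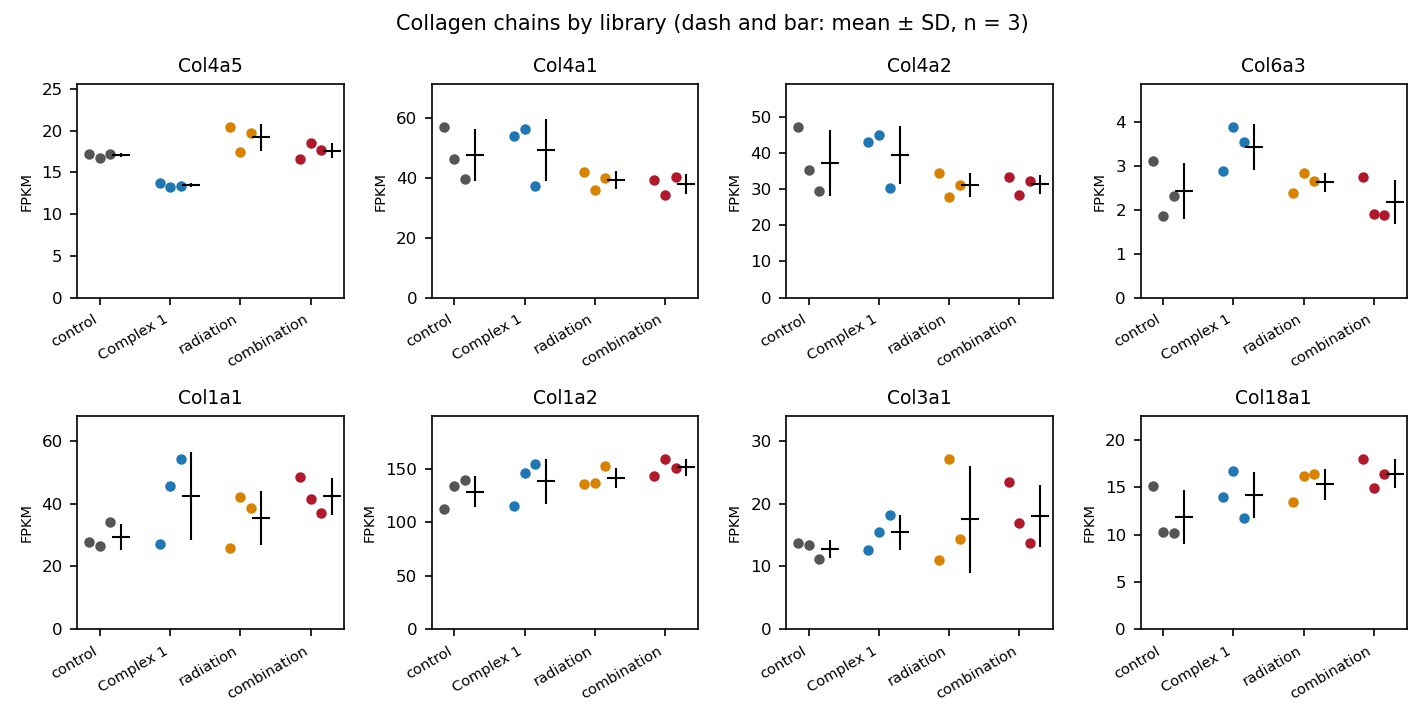
FPKM of 8 collagen chains by group (linear axes from 0); each dot is a library, and the dash with its bar beside the dots is the mean ± SD of the 3 libraries. Col4a5 separates the Complex 1 libraries (13.2 to 13.7 FPKM) from all others, whereas the groups overlap in Col4a1, Col4a2 and Col3a1.

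None of the 6 tested fibrillar collagens passed the test in any of the 8 comparisons. Col1a1 had an unadjusted p under 0.05 in 2 of them (Complex 1 against control and Complex 1 over both levels of radiation). DESeq2 called no fibrillar collagen, but Col1a1 was called higher in combination against control by a fit of only the groups compared, and in Complex 1 over both levels of radiation without Complex 1 replicate 1. The fit without a filter on low values also called fibrillar collagens higher. Against control these included Col3a1 with radiation, Col1a1 with Complex 1, and both with the combination. That fit called 8.48%, 2.53% and 11.9% of all genes in these comparisons. Changes against control were above 0 in 5 of the 6 with Complex 1 and in all 6 with the combination. With radiation they were above 0 in 5 of the 6, and in 2 of the 6 (Col1a1 and Col1a2) without radiation replicate 2. Type I collagen is a trimer of 2 α1 chains (Col1a1) and 1 α2 chain (Col1a2). Col1a2 (chr6:4504814-4541544) had 112, 134 and 140 FPKM in control, 115, 146 and 154 with Complex 1, 136, 137 and 152 with radiation and 143, 159 and 151 with the combination. The 3 combination libraries lay above the 3 controls, and the other groups overlapped. The change of Col1a2 was 0.19 ± 0.11 for the combination against control (adjusted p = 0.25), 0.11 ± 0.11 for radiation and 0.08 ± 0.11 for Complex 1. Col1a1 (chr11:94827050-94843868) had 27.6, 26.5 and 34.2 FPKM in control, 27.0, 45.8 and 54.4 with Complex 1, 25.7, 42.2 and 38.5 with radiation and 48.5, 41.4 and 37.0 with the combination. Complex 1 replicate 1 and radiation replicate 1 were as low as the controls, and the combination alone did not overlap them. The change of Col1a1 was 0.50 ± 0.23 for Complex 1 (adjusted p = 0.39) and 0.48 ± 0.23 for the combination (adjusted p = 0.16), both against control.

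The combination against control called none of the 19 tested collagens, where 21.9% of all tested genes were called. At an unadjusted p under 0.05 there were 3 collagens (Col18a1, Col4a1 and Col8a1), and DESeq2 called 1, Col18a1. The groups did not overlap in FPKM for 2 collagens, Col1a1 and Col1a2, against 38% of all tested genes. Col1a2 exceeded Col1a1 per length in every library, by 2.83-fold to 5.27-fold. The table gives Col1a2 12426 exonic bases and Col1a1 6563, and FPKM depends on such lengths.

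Type III collagen (Col3a1), which mixes with type I in soft tissues, had 13.7, 13.4 and 11.2 FPKM in control, 12.6, 15.5 and 18.2 with Complex 1, 11.0, 27.2 and 14.4 with radiation and 23.4, 16.9 and 13.7 with the combination. Radiation replicate 2 and combination replicate 1 were far above the rest of their groups. Col3a1 was 0.43 ± 0.28 for radiation against control (adjusted p = 0.34) and -0.03 ± 0.21 without radiation replicate 2 (adjusted p = 0.94). Col5a2, a chain of the type V collagen that starts type I fibrils and the neighbour of Col3a1 on chromosome 1 at a gap of 24614 bases, had 4.67 FPKM in radiation replicate 2 and 4.20 in combination replicate 1, and 1.81 to 3.03 in the other 10 libraries. Its change for radiation against control was 0.26 ± 0.34, and -0.29 ± 0.28 without radiation replicate 2. Col5a1, the other main type V chain, stayed between 16.1 and 23.1 FPKM, and its ratio to Col5a2 spanned 3.02-fold. Col5a1 overlaps the tested gene Gm13372, and the strand setting of the counting is not given, so reads of the overlap cannot be told apart. The largest change of Col5a1 in size was 0.22 ± 0.15, in the interaction. Radiation against control called none of the 19 collagens, where 13.2% of all tested genes were called; 2 collagens, Col14a1 and Col18a1, had an unadjusted p under 0.05, and DESeq2 called none.

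The summed FPKM of 10 fibroblast markers was 67.1 to 72.2 in control, 76.4 to 90.1 with Complex 1, 82.4 to 94.3 with radiation and 109 to 124 with the combination. Tcf21 was at 0 in all libraries, 7 of the 10 were tested, and 4 rose (among them Dcn and Thy1) and 1 (Twist2) fell with radiation over both levels of Complex 1, where 26.5% of all tested genes were called. Their part in the fibrillar levels was not tested.

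**Figure D3:**
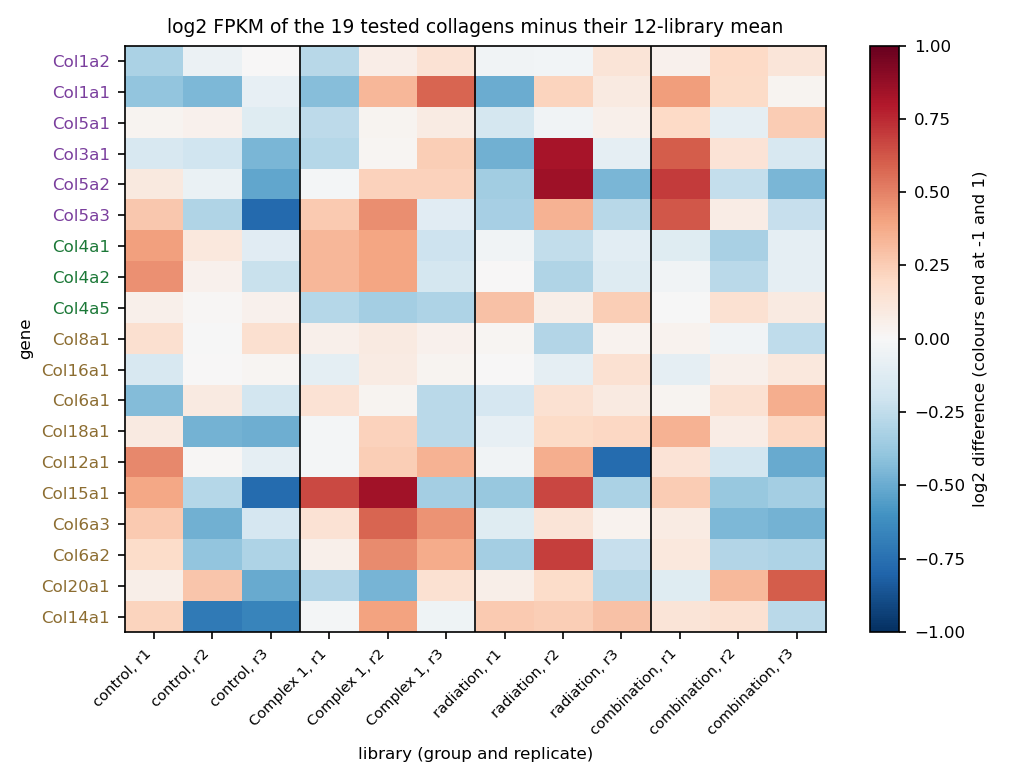
log2 FPKM of the 19 tested collagens minus each gene's mean over the 12 libraries (colour, from -1 to 1); columns are libraries (r1 to r3 are replicates 1 to 3), and gene names are coloured by class. Col3a1 and Col5a2 are darkest in radiation replicate 2 (27.2 and 4.67 FPKM) and high in combination replicate 1, and Col4a1 with Col4a2 in control replicate 1 and Complex 1 replicates 1 and 2.

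Among the other collagens, Col6a3 was the only one called. Type VI collagen is a trimer of α1, α2 and α3 chains that forms beaded filaments around cells. Col6a3 (chr1:90693645-90771693) had 3.11, 1.86 and 2.31 FPKM in control, 2.87, 3.88 and 3.53 with Complex 1, 2.38, 2.83 and 2.65 with radiation and 2.75, 1.90 and 1.87 with the combination. The combination libraries were all below the Complex 1 libraries, and both overlapped the controls. Col6a3 fell by 0.68 ± 0.19 on the log2 scale from Complex 1 to the combination (adjusted p = 0.037), where 5.25% of tested genes were called lower. Against control it was 0.47 ± 0.18 with Complex 1 (adjusted p = 0.31) and -0.21 ± 0.19 with the combination (adjusted p = 0.48). Its call was lost without Complex 1 replicate 2 or 3 (adjusted p = 0.13 and 0.056), without combination replicate 2 or 3 (0.13 and 0.14) and with limma on log2 FPKM (0.067 and 0.071 by pseudocount).

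The 3 chains of type VI were measured at unequal levels. Col6a1 had 14.2 to 24.7 FPKM, Col6a3 1.86 to 3.88 and Col6a2 1.20 to 2.55, and the ratio of Col6a1 to Col6a2 ranged from 7.81 to 19.3. Col6a1 was 0.19 ± 0.14 from Complex 1 to the combination and Col6a2 was -0.48 ± 0.25, and neither was called (adjusted p = 0.44 and 0.25). Col6a4, Col6a5 and Col6a6, which can replace the α3 chain, reached at most 0.11 FPKM. Combination against Complex 1 called 2 of the 19 collagens, Col4a5 and Col6a3, and the groups did not overlap for 3 (with Col8a1 lower), against 30.5% of tested genes. Without the 3 libraries that stand apart, 5 were called there, with Col4a1, Col4a2 and Col15a1 lower as well, and the share of all tested genes called was 15.3%.

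The multiplexins, collagens XV and XVIII, lie at basement membranes, and the end of the XVIII chain is released as endostatin. Col18a1 had 15.1, 10.3 and 10.1 FPKM in control, 14.0, 16.7 and 11.8 with Complex 1, 13.4, 16.2 and 16.4 with radiation and 18.06, 14.98 and 16.40 with the combination. Control replicate 1 was as high as the treated libraries, so that each treated group overlapped the control. Col18a1 was 0.43 ± 0.16 for the combination (adjusted p = 0.065) and 0.35 ± 0.15 for radiation (adjusted p = 0.16) against control. It overlaps Slc19a1, and since the strand setting of the counting is not given, reads of overlapping genes cannot be told apart. Col15a1 ranged from 1.49 to 4.54 FPKM, with 4.02 and 4.54 in Complex 1 replicates 1 and 2 and 4.04 in radiation replicate 2, and its largest change was -0.80 ± 0.51, in the interaction (adjusted p = 0.997).

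Col8a1, a short-chain collagen of vessel walls and the fourth most abundant collagen, had 38.8, 34.7 and 38.8 FPKM in control, 35.9, 37.1 and 35.7 with Complex 1, 35.3, 28.3 and 35.6 with radiation and 35.6, 33.9 and 29.1 with the combination. Radiation replicate 2 and combination replicate 3 were low. Col8a1 was -0.24 ± 0.10 for the combination (adjusted p = 0.099) and -0.21 ± 0.10 for radiation (adjusted p = 0.18) against control. Of the fibril-associated collagens, Col16a1 stayed between 28.2 and 34.9 FPKM, and its changes lay within ± 0.04 in all 8 comparisons. Col12a1, which binds type I fibrils, ranged from 2.01 to 4.78 FPKM and was not called (combination against control -0.36 ± 0.24, adjusted p = 0.32). Col14a1, another fibril binder, had 1.24, 0.65 and 0.67 FPKM in control against 1.26 to 1.30 with radiation, which lay above all 3 controls, and its change was 0.56 ± 0.23 (adjusted p = 0.12). The groups of radiation and control did not overlap for 2 collagens, Col14a1 and Col4a5, against 29.9% of tested genes.

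**Figure D4:**
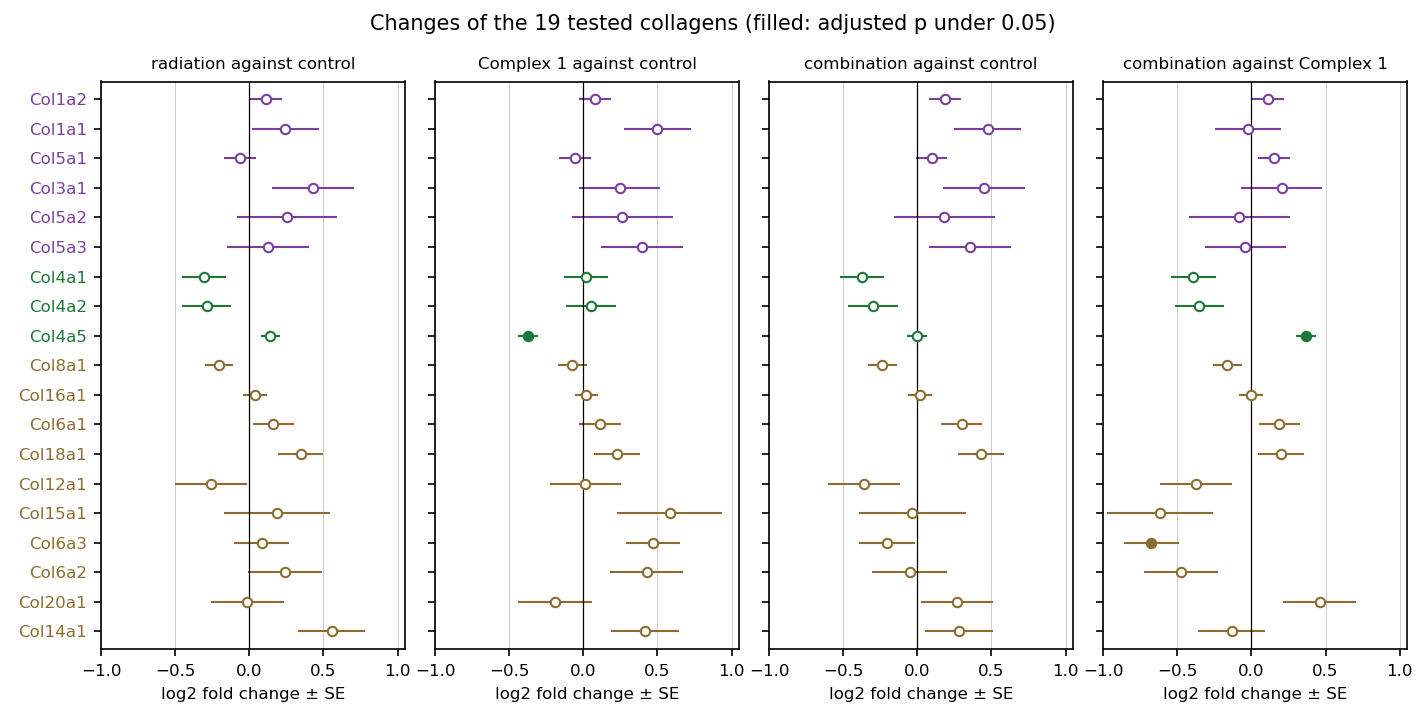
log2 fold change ± SE of the 19 tested collagens in 4 comparisons; colours give the class, and filled points have an adjusted p under 0.05. The filled points are Col4a5, lower with Complex 1 and higher in the combination than in Complex 1, and Col6a3, lower in the combination than in Complex 1.

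Set side by side, the median change of the 6 fibrillar collagens was 0.18 with radiation, 0.25 with Complex 1 and 0.27 with the combination, each against control. The medians of the 3 basement membrane chains were -0.29, 0.02 and -0.30, and those of the 10 other collagens 0.12, 0.17 and -0.01. Without radiation replicate 2 the radiation medians were -0.05 for fibrillar, -0.21 for basement membrane and -0.04 for other collagens, and that of all 19 turned from 0.13 to -0.07. Without the 3 libraries that stand apart they were -0.02, -0.25 and -0.03, while the fibrillar medians were 0.17 with Complex 1 and 0.27 with the combination, and the basement membrane medians 0.16 and -0.33. Over all 13668 tested genes the medians were -0.01, 0.01 and -0.01. The 3 comparisons share the control libraries. The basement membrane medians are those of Col4a1 or Col4a2, since Col4a5 moved differently.

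Summed over each class, fibrillar FPKM were 195 ± 14.1 in control (SD, n = 3), 221 ± 39.7 with Complex 1, 219 ± 21.7 with radiation and 239 ± 8.79 with the combination. The 3 combination libraries (229 to 246) lay above the 3 controls (179 to 207), and the other groups overlapped the controls. Basement membrane sums were 102 ± 17.8, 102 ± 18.4, 89.7 ± 7.69 and 87.0 ± 5.07 in the same order, and the groups overlapped. Without the 3 libraries that stand apart their means were 104, 113, 93.8 and 87.0. Complex 1 (110.8 to 114.5, 2 libraries) then lay above radiation (90.9 to 96.7) and the combination (81.2 to 90.4). Control (86.3 to 121) still overlapped every group. The other collagens stayed at 111 ± 2.44, 118 ± 6.96, 115 ± 4.33 and 117 ± 1.63. The ratio of fibrillar to basement membrane FPKM was 1.96 ± 0.462 in control, 2.25 ± 0.786 with Complex 1, 2.47 ± 0.432 with radiation and 2.76 ± 0.219 with the combination. It ranged from 1.48 in control replicate 1 to 3.12 in Complex 1 replicate 3, and in the combination libraries (2.54 to 2.97) it was above all 3 controls (1.48 to 2.40). Without the 3 libraries that stand apart the mean fibrillar sums were 193 in control, 205 with Complex 1, 212 with radiation and 239 with the combination, and the mean ratios 1.94, 1.82, 2.27 and 2.76. Col1a2 makes up 64.0% of the fibrillar level, so that its values weigh most in these sums.

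**Figure D5:**
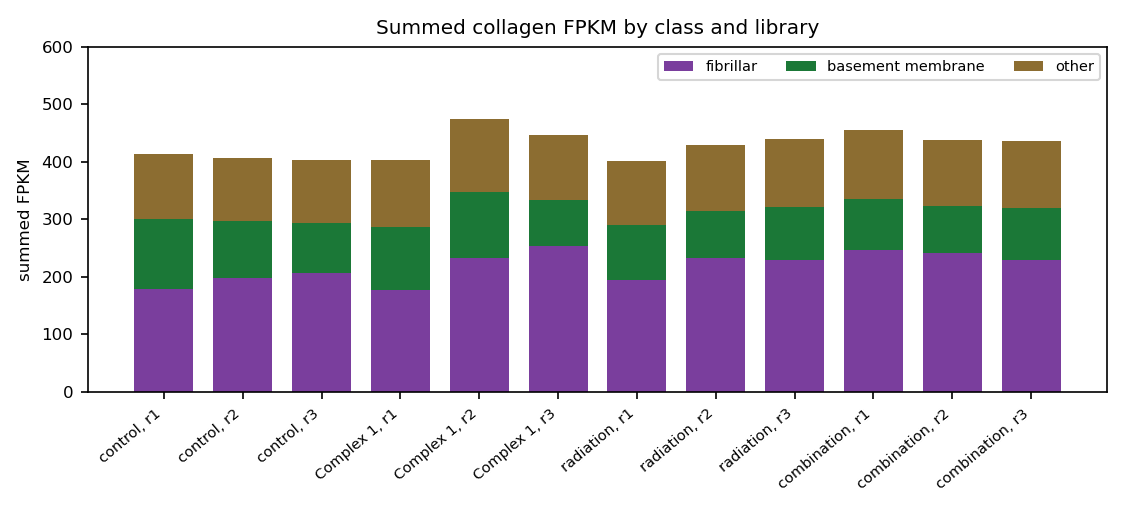
Summed FPKM of fibrillar, basement membrane and other collagens stacked for each library (r1 to r3 are replicates 1 to 3). Fibrillar sums are 229 to 246 in the combination libraries against 179 to 207 in control, and the sums of the other collagens stay between 109 and 126.

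The largest fold between group means among the 19 tested collagens was 1.58, for Col6a3. Of the 19, 4 spanned under 1.5-fold over the 12 libraries and 10 spanned at least 2-fold. Combination against radiation called none of the 19, where 0.651% of tested genes were called: 1 (Col4a5) had an unadjusted p under 0.05, and DESeq2 called none. The smallest p there after Col4a5 belonged to Col6a3 (-0.29 ± 0.19) and Col5a1 (0.16 ± 0.11), with adjusted p of 0.62 and 0.63. The groups did not overlap for Col14a1 alone, which was lower in the combination, against 16.8% of tested genes. In Complex 1 against control they did not overlap for Col4a5 alone, against 16.1%. The interaction called none, where 0% of tested genes were called: Col6a3 (-0.76 ± 0.26) and Col4a5 had an unadjusted p under 0.05, and DESeq2 called none.

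Of 33 enzymes and chaperones that make collagen, 25 were tested. With radiation over both levels of Complex 1, 4 rose and 3 fell, a share near the 26.5% of all tested genes called (13.3% higher and 13.2% lower), with a median of 0.00. Serpinh1 (HSP47), the chaperone of the triple helix, fell by 0.42 ± 0.07 on the log2 scale (adjusted p = 0.00081), and Loxl4, a cross-linking lysyl oxidase, fell by 0.28 ± 0.05 (adjusted p = 0.0019). Loxl3, of the same family, rose by 0.63 ± 0.07 (adjusted p = 8.7e-05), and Bmp1, which trims the end of procollagen, rose by 0.36 ± 0.05 (adjusted p = 0.00052). P4ha1 (-0.23 ± 0.08), Plod2 (-0.17 ± 0.12), which hydroxylate prolines and lysines, Pcolce (0.13 ± 0.07), which enhances Bmp1, and Lox (0.65 ± 0.31) were not called there. Combination against control called 9 of the 25, 5 higher and 4 lower (among them P4ha1, which fell by 0.37 ± 0.12, adjusted p = 0.036, and Serpinh1), where 21.9% of all tested genes were called. Complex 1 against control called none of the 25.

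Of the collagen receptors, 10 were listed and 6 tested, and 3 rose and 3 fell with radiation over both levels of Complex 1, where 26.5% of all tested genes were called. Mrc2, which takes up collagen for breakdown, rose by 0.30 ± 0.07 (adjusted p = 0.0045) and Itga10 by 0.86 ± 0.21 (adjusted p = 0.0095). The collagen receptor kinase Ddr2 fell by 0.20 ± 0.04 (adjusted p = 0.0024), and Itgb1, the shared β1 integrin, fell by 0.24 ± 0.05 (adjusted p = 0.0063). Itga11 was below the filter. Of 14 genes of collagen breakdown, 12 were tested, and 5 rose and 3 fell in the same comparison, against 26.5% of all tested genes called, with a median of 0.30. The collagenase Mmp13 fell by 0.69 ± 0.12 (adjusted p = 0.0012), while cathepsin B (Ctsb) rose by 0.48 ± 0.07 (adjusted p = 0.00034) and the inhibitor Timp2 by 0.41 ± 0.05 (adjusted p = 0.00016). Complex 1 against control, where 0.812% of all tested genes were called, raised 2 of these 12: Mmp8, the neutrophil collagenase, by 2.43 ± 0.39 (adjusted p = 0.014), and the gelatinase Mmp9 by 2.04 ± 0.25 (adjusted p = 0.0049). The summed FPKM of 6 macrophage markers was 413 to 441 in control, 521 to 578 with Complex 1, 705 to 778 with radiation and 743 to 776 with the combination, and 4 of the 6 rose with radiation over both levels of Complex 1, against 13.3% of all tested genes called higher. Its part in the protease values was not tested.

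Of 17 listed partners of type IV collagen in the basement membrane, 13 were tested, and with radiation over both levels of Complex 1 those called included Agrn, which rose by 0.33 ± 0.07 (adjusted p = 0.0034), and the laminin chain Lamb1, which fell by 0.24 ± 0.08 (adjusted p = 0.046). The laminin chain Lamc1 (-0.09 ± 0.05), the linker Nid1 (0.01 ± 0.08) and perlecan, Hspg2 (0.13 ± 0.09), were not called. Of 12 tested genes of 15 that bind or space collagen fibrils, 3 rose and none fell, with a median of 0.31. Of all tested genes 26.5% were called, 13.3% higher and 13.2% lower. The 3 were decorin (Dcn), which rose by 0.49 ± 0.09 (adjusted p = 0.0018), Dpt by 0.71 ± 0.16 (adjusted p = 0.0060) and Tnxb by 0.73 ± 0.07 (adjusted p = 4.3e-05). Of 16 tested genes of 19 in TGF-β signalling, the main inducer of collagen genes, 2 rose and 1 fell, a share below that 26.5%: the receptors Tgfbr2 (0.50 ± 0.04, adjusted p = 1.6e-05) and Tgfbr3 (0.29 ± 0.09, adjusted p = 0.027) rose, and Smad2 fell by 0.25 ± 0.04 (adjusted p = 0.00091). Tgfb1 itself (-0.06 ± 0.08) and the target Ccn2 (0.70 ± 0.35, adjusted p = 0.16) were not called.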

How the data were processed

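RNA-seq of 12 CT26 tumour libraries was analysed from the table the authors deposited, which holds raw counts and FPKM per gene and library. The submitters' processing notes name build mm39, DESeq2, HTSeq 2.0.1 and STAR 2.5.3a, with no role for each; the strand setting is not given in the sources used here. The deposited FPKM are the counts per kilobase of exonic length and mega count (total of the library), and recomputing them gave the deposited values within 0.005. FPKM serve as levels and counts for the tests. The 13668 genes with at least 1 FPKM in at least 3 of 12 libraries were tested, of which 19 are collagens.

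In R 4.3.3, the quasi-likelihood test of edgeR 4.0.16 was run with TMM scaling on all 12 libraries with a mean per group, for 8 comparisons, and p-values were Benjamini-Hochberg adjusted over all tested genes. A call is an adjusted p under 0.05. Tested on simulated radiation against control (13668 genes), the test recovered 68% of genes changed by 1.5-fold and 80% by 2-fold, with 17 calls among unchanged genes. Alternatives were DESeq2 1.42.0, limma 3.58.1 on log2(FPKM + 1) and log2(FPKM + 0.1), other scalings and filters, a fit of only the groups compared, removal of a gene length trend, a replicate block, and leaving out libraries. Setting aside the 3 libraries that stand apart, the filter filterByExpr and the T cell markers were added after seeing the data.

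The collagens named are those called, the main chains of types I, III, IV, V, VI, XII, XV and XVIII, the 5 most abundant, and, where a comparison called none, up to 3 with the smallest p; Col5a3 and Col20a1 are only counted. Of the partner lists, up to 4 genes per list and comparison with the smallest p among those called and 14 set genes could be named; not all were, and 1 result is not reported here. Col16a1, Col28a1, Col9a3, Col11a2, Col27a1 and the uncalled type IV and VI chains were singled out after their values were seen. The members and lists were chosen with earlier results of these data known. Sharing of 31-base stretches with other loci (GENCODE M21) was at most 2.18% of a tested collagen. Promoter windows came from RefSeq (GRCm38.p6), and 9 collagens had none. No protein sequences were used here.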

Additional observations from a re-analysis of the deposited data

Results flagged for a closer look

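Some collagens under the filter of 1 FPKM were above every control library in all 3 libraries of a treated group, with at least 30 counts in the group. Of 26 pairs of such a collagen and a treated group with at least 30 counts, 6 were above, from 4 of 11 collagens. Among all tested genes, FPKM did not overlap control, in either direction, for 29.9% with radiation, 38% with the combination and 16.1% with Complex 1. Those shares count both directions among tested genes, whereas the 6 pairs count only values above control, so they are not like measures. Col28a1, a small beaded-filament-like collagen known from nerve, had a mean of 0.70 FPKM in the combination and 0.673 with radiation, from 50 to 64 and 46 to 71 counts a library against 17, 26 and 28 in control. Complex 1 libraries had 5, 16 and 54 counts of Col28a1. Col9a3, a fibril-associated chain of cartilage, had a mean of 0.53 FPKM with radiation and 0.653 with the combination, from 35 to 40 and 32 to 50 counts against 25 to 33 in control. Col11a2, a fibrillar chain of cartilage, had 0.717 FPKM in the combination (71 to 102 counts against 44, 71 and 48 in control), and control replicate 2 and combination replicate 2 had the same count of 71. Col27a1 had 0.15 FPKM with Complex 1, from 28 to 37 counts against 13 to 26.

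With the looser filter filterByExpr, chosen after seeing the data, 31 collagens were tested. With radiation over both levels of Complex 1, 5 of them were called, against 24.2% of all genes under that filter. edgeR's calls there included Col28a1 (log2 change 1.23 ± 0.37, adjusted p = 0.028) and Col9a3 (0.54 ± 0.18, adjusted p = 0.045), both higher. Col28a1 and Col9a3 had been flagged for lying above control in these same libraries, so their calls are no separate support. In the pairwise comparisons with control none of the 4 named above was called (combination against control: Col28a1 adjusted p = 0.089, Col11a2 0.073, Col9a3 0.13; Complex 1 against control: Col27a1 0.25).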

How the results depend on the processing

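Of the 6 calls (Col4a5 in 4 comparisons, Col4a1 and Col6a3 in 1 each), 116 of 135 values under the alternatives stayed called and 19 lost the call, and none changed direction. Col4a5 stayed called throughout in combination against Complex 1 and in both averaged effects. Of the 3304 alternative values of changes not called, 67 became called, and 221 changed sign without being called. Without a filter on low values, 43 collagens were tested among 31727 genes. In brackets are the share of all genes called and the collagens called in the reported test. Collagens called were 8 in radiation against control (8.48%, reported 0) and 4 in Complex 1 against control (2.53%, reported 1). They were 11 in combination against control (11.9%, reported 0) and 9 in combination against Complex 1 (7.2%, reported 2). Radiation over both levels called 10 (13.6%, reported 2) and Complex 1 over both levels 4 (3.98%, reported 1). The interaction called 2 (0.514%, reported 0). The cause was not tested. In combination against control, library totals, DESeq2 and a fit of only the groups compared called 1 each (Col18a1, Col18a1 and Col1a1). The shares of all tested genes called were 20.7%, 23% and 21.4%. In combination against Complex 1, limma called 1 with either pseudocount, against 8.52% and 8.85% of all tested genes. With radiation over both levels limma called 1 with either, against 24.5% and 24.6% of all tested genes. DESeq2 called 5 there, against 27.2%, and filterByExpr 5 of 31, against 24.2%. Without control replicate 2, Complex 1 replicate 3 and radiation replicate 2, counts were 0 in Complex 1 against control, 2 in combination against control and 5 in combination against Complex 1. The shares of all tested genes called were 0.139%, 18.8% and 15.3%. Leaving out 1 library gave the following calls, with the range of the share of all tested genes called in brackets. They were 0 to 2 in radiation against control (6.33% to 14.7%) and 0 to 1 in Complex 1 against control (0.0293% to 1.73%). Combination against control gave 0 to 2 (15.2% to 23.2%) and combination against Complex 1 gave 1 to 3 (4.26% to 13.8%). Radiation over both levels gave 1 to 4 (20.6% to 27.8%) and Complex 1 over both levels 1 to 2 (1.46% to 4.45%). Deviations from the group mean correlated at -0.20 to 0.16 over 18 pairs of same-numbered libraries and at -0.24 to 0.18 over 36 other pairs. With 3 libraries per group these correlations cannot decide whether the numbers pair samples, and the labels do not say. The fit with the replicate block called 1 in Complex 1 against control, 2 in combination against Complex 1, 3 with radiation over both levels (adding Col4a2), 1 with Complex 1 over both levels and 0 elsewhere. In those 4 comparisons it called 0.637%, 11.1%, 26.7% and 2.66% of all tested genes. Counting Col15a1 and Col18a1 as basement membrane collagens raises that class from a mean of 95.2 to 112 FPKM and lowers the others from 115 to 98.0. Depth limits the 25 collagens under the filter: a count of 0 in a library leaves room for up to 3 counts, and such floors cover counting error only.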
